A study of Mus musculus with 5 samples.

Results

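The surfactant and alveolar type II genes Sftpa1, Sftpb, Sftpc, Sftpd, Slc34a2 and Napsa were described through every probe set whose annotation gave exactly 1 gene symbol and whose symbol was 1 of these 6. A probe set reads out 1 transcript through several short oligonucleotides. Of the 6 genes, 5 had such a probe set, 1 each, out of 8251 genes with a probe set of 1 symbol. Sftpa1 was not analysed here. The RNA was total RNA labelled as murine lung, hybridised to 5 Affymetrix arrays, 1 for each combination of treatment and title number. A-J mice, an inbred strain, received saline into the trachea (2 arrays, whose titles carry the numbers 6 and 48) or IL-13 by the same route (3 arrays, with 6, 18 and 48). IL-13 is a cytokine of type 2 immunity that acts on airway epithelium, and the labels place the study in the context of goblet cells, the mucus cells of the airway. No genotype other than the strain, no age and no dose was given, and the title numbers carry no unit. Each array is named here by its treatment and title number, for example IL-13 18. The number of animals behind an array was not stated, so the p-values reflect only how far the arrays spread, which may be technical. No 2 arrays of a treatment share a title number, so that spread also holds any difference between title numbers. It is not a spread between replicates of 1 condition.

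Pulmonary surfactant is the film of phospholipid and protein that lowers surface tension in the alveoli. Alveolar type II cells make its parts, store them in lamellar bodies and secrete them. Sftpb and Sftpc encode the small hydrophobic proteins SP-B and SP-C that spread the lipid film, and Sftpd encodes SP-D, a collectin of innate defence that airway epithelium also makes. Napsa encodes napsin A, an aspartic protease that takes part in processing the SP-B precursor, and Slc34a2 encodes the sodium-phosphate carrier of the type II cell.

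The sequences upstream of Sftpb and Slc34a2 are shown because these genes had the most similar profiles among the 3 members with a wide range. Both come from the RefSeq promoter table of build GRCm38.p6, which matched 3 of the 6 genes (Sftpa1, Sftpb and Slc34a2). Each run is the 250 bases before the annotated start, 5′ to 3′ on the plus strand, with no transcribed base. Sftpb lies on the plus strand (chr6:72304360-72304609), as does Slc34a2 (chr5:53049103-53049352).
Sftpb: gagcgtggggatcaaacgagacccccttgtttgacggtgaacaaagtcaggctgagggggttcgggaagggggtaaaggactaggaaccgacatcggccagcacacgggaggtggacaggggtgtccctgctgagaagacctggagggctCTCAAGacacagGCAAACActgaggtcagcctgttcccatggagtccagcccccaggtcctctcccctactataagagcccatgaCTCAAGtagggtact
Slc34a2: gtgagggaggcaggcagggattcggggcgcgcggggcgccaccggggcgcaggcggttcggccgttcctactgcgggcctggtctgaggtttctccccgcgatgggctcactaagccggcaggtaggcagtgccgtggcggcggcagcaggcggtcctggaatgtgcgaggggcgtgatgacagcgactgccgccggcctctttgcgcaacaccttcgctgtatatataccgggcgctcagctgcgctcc
Capitals mark matches, on either strand, to CTCAAG, a motif of the type bound by NKX2-1, or to TGTTTGC, a motif of the type bound by FOXA factors. The motifs do not overlap each other, and they were picked after the sequences had been seen. Upstream of Sftpb, CTCAAG began 100 and 15 bases before the start and a minus-strand match to TGTTTGC began at 88. Upstream of Slc34a2 neither string of letters occurred. Over 32851 promoters of the same length, 13.3% held CTCAAG and 4.3% held TGTTTGC on either strand, and a match is a description of letters, not a binding site.

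The values deposited by the authors are intensities, a linear brightness of each probe set. They were brought to 1 common trimmed mean, and values below 55.3 were raised to that floor before log2 was taken. Median intensity was 324.4 to 358.4 over the 5 arrays. A probe set was tested where it exceeded 210 on at least 2 arrays, which 7811 of 12422 did. Among the 5 member probe sets 4 were tested. Sftpd exceeded 210 on 1 array only.

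The label of lung was compared with marker genes. Scgb1a1, the secretory protein of club cells, measured 22019 to 31029, and Ager, a marker of alveolar type I cells, measured 1874 and 2127 on saline 6 and 48, and 2082, 4926 and 2018 on IL-13 6, 18 and 48. By contrast Sftpb was below 210 on 3 of the 5 arrays and Sftpc lay below the pooled median of 343 on the same 3, saline 48, IL-13 6 and IL-13 48. The type II markers Abca3, Lamp3 and Cxcl15 and the regulator Nkx2-1 were not analysed here. Muscle and gland genes were also present. All 20 genes of the heart and skeletal muscle list had a probe set, and their summed intensity was 126387 to 184570.5 on the saline arrays and 137217 to 174766.5 on the IL-13 arrays. Acta1, the actin of skeletal muscle, measured 11565 to 26561. Of 17 salivary gland genes 11 had a probe set, with a summed intensity of 114118 on saline 6 and 1881 to 2557 on the other 4 arrays. No gene of these lists was listed at 0.

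Sftpc, the type II cell's most specific product among the members, had the widest range. Its probe set (94900_at) measured 2617 and 194.2 on saline 6 and 48, and 257.2, 17169 and 300.4 on IL-13 6, 18 and 48. IL-13 18 was the highest array and saline 6 the next, and the other 3 lay close together, so the treatment groups overlapped. IL-13 18 was 6.56-fold above saline 6, 66.75-fold above IL-13 6 and 57.2-fold above IL-13 48. The saline arrays themselves differed 13.5-fold. The fold range from lowest to highest array, 88.4, ranked 3 among the 7811 tested probe sets, whose median was 1.53. Probe sets above the filter threshold on fewer than 2 arrays were not in this ranking.

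Sftpb, whose product SP-B is required for lamellar bodies and for breathing after birth, had the same 2 arrays on top. Its probe set (160891_at) measured 232 and 92.4 on saline 6 and 48, and 86.3, 2113 and 67.6 on IL-13 6, 18 and 48. IL-13 18 stood alone, 9.11-fold above saline 6 and 31.3-fold above IL-13 48, the lowest array. Saline 6 was 2.51-fold above saline 48. The remaining 2 IL-13 arrays lay below both saline arrays.

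Slc34a2 differed from Sftpb mainly on IL-13 6 and saline 6. Centred on the gene mean, its log2 values were -0.44 against -1.16 on IL-13 6 and -0.27 against 0.27 on saline 6. The probe set of Slc34a2 (98994_at) measured 252.1 and 147.6 on saline 6 and 48, and 224.3, 2728 and 112.9 on IL-13 6, 18 and 48. IL-13 18 was again far above the rest, 10.8-fold over saline 6 and 24.2-fold over IL-13 48. The other 4 arrays lay within the range 112.9 to 252.1, and the treatment groups overlapped.

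Napsa behaved otherwise. Its probe set (101972_at) measured 1807 and 2836 on saline 6 and 48, and 2087, 2003 and 2102 on IL-13 6, 18 and 48. The 3 IL-13 arrays lay between the 2 saline arrays, and the whole range was 1.57-fold, rank 3538 of the 7811. On IL-13 18, where Sftpb, Sftpc and Slc34a2 peaked, Napsa was at 0.706 of its highest array. Napsin A is also made in the kidney, and the probe set does not tell cell types apart.

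Sftpd was dim throughout. Its probe set (102648_at) measured 121.2 and 133.3 on saline 6 and 48, and 217.2, 174.7 and 183.3 on IL-13 6, 18 and 48. Each IL-13 value exceeded each saline value, and Sftpd was the only member whose groups did not overlap. That order occurred in 12.5% of all 12422 probe sets. The mean log2 difference was 0.59, and in a limma fit without the filter on low values its SE was 0.12 and its adjusted p 0.441. No value exceeded the pooled median. With the floor raised to the pooled 40th percentile the difference was 0.016.

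**Figure D1:**
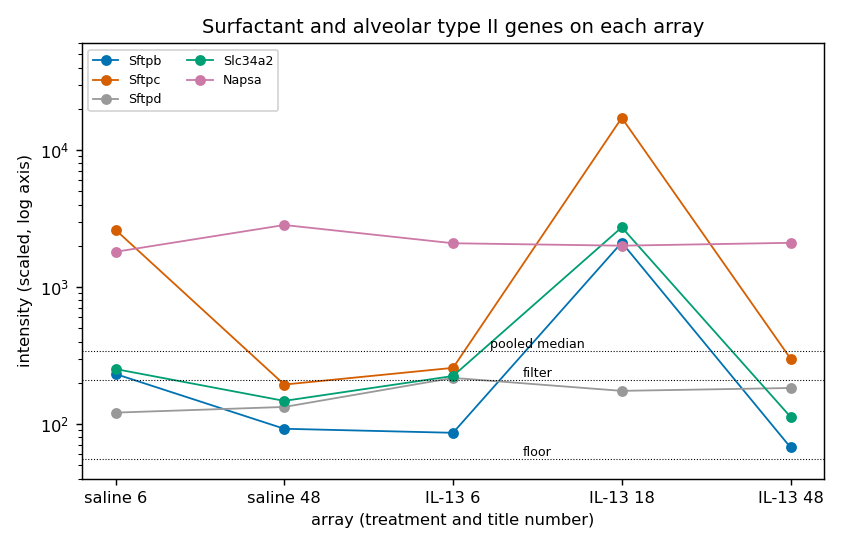
Intensity (log axis) of the 5 member probe sets on each of the 5 arrays; dotted lines mark the floor (55.3), the filter (210) and the pooled median (343), and lines only join points of 1 gene. Sftpb, Sftpc and Slc34a2 peak on IL-13 18 at 2113, 17169 and 2728, whereas Napsa and Sftpd stay within 1.57-fold and 1.79-fold.

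The comparison of IL-13 with saline asks which transcripts differ after the cytokine. None of the 4 tested members passed limma's test with Benjamini-Hochberg adjustment at 0.05. Over all tested probe sets 0.0512% were called (1 higher and 3 lower of 7811), and 412 were higher and 311 lower at an unadjusted p under 0.05. Those calls depended on single arrays: without IL-13 6, IL-13 18 or IL-13 48 there was no call either way. Leaving out a saline array left 1 saline array only, so calls from those fits are not given. The IL-13 minus saline difference was 0.66 (SE 1.46) for Sftpb, with an adjusted p of 0.915. It was 0.62 (SE 1.995) for Sftpc, with an adjusted p of 0.941. For Slc34a2 it was 1.09 (SE 1.25), with an adjusted p of 0.825. For Napsa it was -0.13 (SE 0.23), with an adjusted p of 0.892. The SE exceeded the size of the difference for each of these genes. Nor did any tested member lie wholly on 1 side: 14.7% of tested probe sets had every IL-13 array above the saline arrays and 11% had them below.

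The sign of the treatment difference turned in all 4 tested members when 1 array was left out, IL-13 18 for Slc34a2, saline 48 for Napsa and either of these for Sftpb and Sftpc. Without IL-13 18 it turned to -0.94 for Sftpb, -1.36 for Sftpc and -0.28 for Slc34a2. Without saline 48 it was -0.01 for Sftpb, -1.25 for Sftpc and 0.19 for Napsa. Without saline 6 the difference was 2.50 for Sftpc, against 0.62 with all arrays. No member passed the test in any of these fits.

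**Figure D2:**
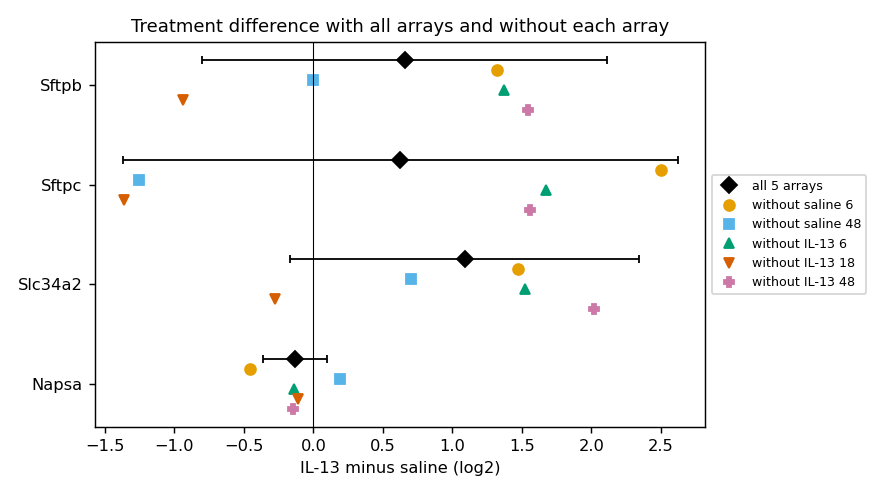
Log2 difference between IL-13 and saline arrays for the 4 tested members, from all 5 arrays (diamonds, bars ± 1 SE) and without each array in turn (other symbols). Leaving out IL-13 18 puts Sftpb, Sftpc and Slc34a2 below 0, at -0.94, -1.36 and -0.28.

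Within a title number there was 1 array per treatment, hence no test. In the pair of title number 6, the saline value of Sftpc was 10.2-fold that of IL-13. Among 6549 probe sets bright enough to count (the higher value above 343), 3.5% were at least 2-fold higher on IL-13 and 4.06% at least 2-fold lower. Sftpb was 2.69-fold lower in that pair but its higher value was under 343. Slc34a2 was at 0.89, Napsa at 1.16 and Sftpd at 1.79 times the saline value. In the pair of title number 48, Sftpc was at 1.55 times its saline value, Sftpd at 1.38, Slc34a2 at 0.765, Napsa at 0.741 and Sftpb at 0.731. Among the members only Napsa was bright enough to count there, and it did not reach 2-fold. Of the 6536 probe sets that counted, 1.13% were at least 2-fold higher on IL-13 and 2.08% lower. Sftpb, Sftpc, Sftpd and Slc34a2 also stayed under 2-fold, but their higher values were under 343, so they could not have counted. At title number 6 the high value of Sftpc was that of saline 6, and IL-13 6 (257.2) was near saline 48 (194.2).

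Arrays of title number 6 were also compared with those of 18 and 48. No probe set passed limma's test with adjustment (0% of 7811; 266 higher and 389 lower at an unadjusted p under 0.05). The title 6 minus other difference was -0.74 (SE 1.48) for Sftpb, -0.29 (SE 2.05) for Sftpc, -0.59 (SE 1.335) for Slc34a2 and -0.24 (SE 0.21) for Napsa. The adjusted p was 0.902, 0.973, 0.912 and 0.771 in that order. Without IL-13 18 the first 3 turned to 0.84, 1.76 and 0.88. Without IL-13 6 only saline 6 was left of title number 6, and the difference of Sftpc was then 1.39.

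IL-13 18 held the highest value of Slc34a2, Sftpb and Sftpc. A probe set at least 2-fold above each of the other 4 arrays on IL-13 18 occurred in 0.23% of those tested (18 of 7811), and 3 of the 4 tested members were among them. Of these members, Sftpb passed the filter only through its values on saline 6 and IL-13 18. Slc34a2, Sftpb and Sftpc ranked 1, 2 and 4 of 7811 by this fold, and Napsa ranked 6029. These ranks describe 1 array, which has no replicate of its title number. For comparison, 0.845% of tested probe sets (66) were as far above the others on saline 6. The filter kept a probe set out of both counts and the ranks if it was above the threshold on 1 array only. Hc (473.7 on IL-13 18, 5.33-fold above the next array) and Sema3e (738.4, 3.54-fold) were left out in this way. So was Smr3a, at 23004.9 on saline 6. Under the other scalings and floors, a check added after the data were seen, the log2 excess was 3.11 to 3.19 for Sftpb, 2.68 to 2.80 for Sftpc and 3.37 to 3.44 for Slc34a2.

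Of the other 15 probe sets among the 18, 6 were of genes on a cell type list and 9 were on none of the lists. Those on a list were markers of type II, type I, macrophage and endothelial cells, and the others were Slc39a8, Icam1, Inmt, Enpep, Lcn2, Col13a1, Septin4, Glipr2 and 1 probe set with no single symbol. Chil1, a chitinase-like protein on the list of other type II markers, ranked 3 with 3057 on IL-13 18 against 79.25 to 351.2 elsewhere. Mmp12, the metalloelastase of macrophages, ranked 5 with 5.87-fold. Emp2 and Ager, both on the list of alveolar type I markers, were 2.39-fold and 2.32-fold above the next array. Cldn5, a tight junction protein of endothelium, was 2.33-fold above it, and Chil3, a chitinase-like protein of macrophages, 2.39-fold. Levels in such bulk RNA cannot tell fewer cells of a type from less RNA per cell.

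**Figure D3:**
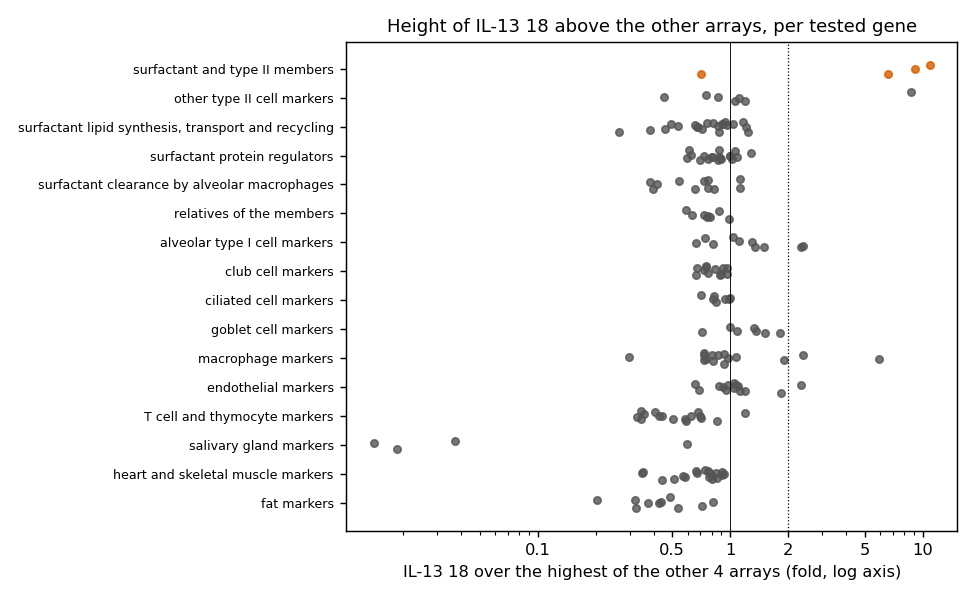
Fold of IL-13 18 over the highest of the other 4 arrays (log axis), 1 point per tested gene, for the members (orange) and 15 gene lists (grey, vertical scatter has no meaning); the solid line marks 1 and the dotted line 2. Slc34a2 (10.8), Sftpb (9.11) and Sftpc (6.56) lie far to the right, with Chil1 (8.71) and Mmp12 (5.87) among the listed genes, and Napsa lies at 0.706.

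Saline 6 shared part of the pattern. Both IL-13 18 and saline 6 were at least 2-fold above each of the other 3 arrays in 0.192% of tested probe sets (15 of 7811), and Sftpc and Sftpb were among these 15. Sftpb was above the filter threshold on these 2 arrays only, with 232 on saline 6 and 2113 on IL-13 18. It was therefore tested only through the arrays that define the pattern. Of the 14 named genes in that group, 6 belonged to the heart and skeletal muscle list: Myl7, Myh6, Myl4, Nppa, Tnni3 and Tnnt2. That list held 19 of the 5980 tested genes. Nppb and Chia1, which were not on it, were also in the group. The pattern of 2 high arrays was chosen after the values had been seen. Myl7, the atrial myosin light chain, measured 7555 and 129.9 on saline 6 and 48, and 224.8, 3321 and 192.3 on IL-13 6, 18 and 48. Its higher array was saline 6, whereas that of Sftpc and Sftpb was IL-13 18. Nppa, the atrial natriuretic peptide, measured 2653 and 2031 on saline 6 and IL-13 18 and 415.7 to 537 on the others. Of the 11 salivary genes measured, 9 were highest on saline 6, and Egf and Smr2 were highest on IL-13 6. The part of these tissues in the values of Sftpb and Sftpc was not tested.

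The members were not alike among themselves. As a measure of likeness, each log2 profile was centred on its mean over the 5 arrays, and the root mean square difference between profiles was taken. Sftpd and Napsa, both nearly flat, were 0.40 apart and Sftpb and Slc34a2 0.42, followed by Sftpb and Sftpc (0.895) and Sftpc and Slc34a2 (1.24). Every distance between one of Sftpb, Sftpc and Slc34a2 and one of Sftpd and Napsa was larger, 1.63 to 2.63.

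Outside the members, the gene nearest to both Sftpb (0.65) and Slc34a2 (0.42) was Chil1, followed by Mmp12 (0.77 and 0.62). For Sftpc the nearest were Myl7 (1.24), Chil1 (1.27), Myl4 (1.415), Myh6 (1.45) and Nppa (1.57), so 4 of its 5 nearest profiles were of heart muscle genes. For Sftpd the nearest were Asah1, Oxt and Anxa2 (0.04, 0.04 and 0.05). For Napsa they were Trir, Ulk1 and Zfp53 (0.03, 0.04 and 0.04), in profiles that hardly vary. For the mean profile of the members they were Icam1, Slc39a8 and Inmt (0.54, 0.55 and 0.55). These distances describe 5 arrays and carry no test.

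**Figure D4:**
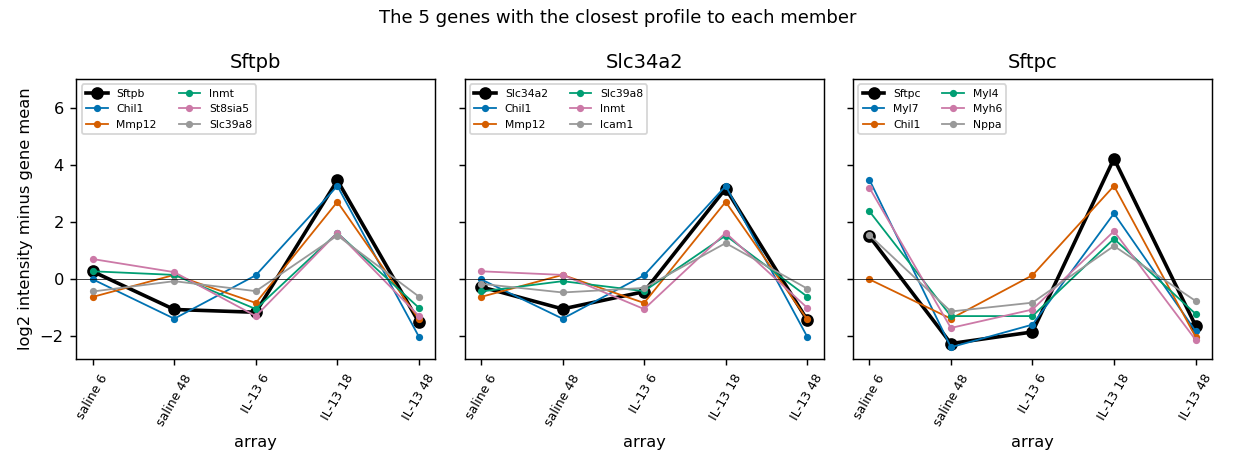
Log2 intensity minus the gene's mean over the 5 arrays for Sftpb, Slc34a2 and Sftpc (black) and the 5 genes with the closest profile to each (colours). Chil1 follows Sftpb and Slc34a2 (0.65 and 0.42 apart), and the heart genes near Sftpc are higher on saline 6 than on IL-13 18.

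Of 19 other type II cell markers, 9 had a probe set and 7 were tested. None passed the limma test, with 6 higher and 1 lower in mean on IL-13 and a median difference of 0.41, against 0.03 over 5980 tested genes. Chil1 differed by 1.155 (adjusted p 0.835). Muc1, the epithelial mucin, measured 2633 and 3356 on saline 6 and 48 and 3123, 4842 and 4559 on IL-13 6, 18 and 48. Lyz2, the lysozyme that type II cells share with macrophages, measured 10718 to 15055 and had no peak on IL-13 18 (11229.5). Hc, complement C5, measured 473.7 on IL-13 18 and 15.05 to 88.95 elsewhere, and was not tested because it exceeded 210 on 1 array. IL-13 18 was the highest array in 4 of the 7, against 19.2% of all tested genes. It was at least 2-fold above the others in Chil1 alone, against 15 of the 5980 tested genes.

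Genes of surfactant lipid synthesis, transport and recycling did not peak on IL-13 18 as far above the other arrays as Sftpb and Sftpc did. Of 31 listed, 23 had a probe set and 21 were tested. None was called, 9 were higher and 12 lower in mean, the median difference was -0.04, and none was 2-fold above the others on IL-13 18. Acly had the same 2 arrays on top as Sftpb and Sftpc, with saline 6 the higher. It measured 12145 on saline 6 and 6519 on IL-13 18, against 3454 to 4175 on the others. Lpcat1, the acyltransferase that remodels surfactant phosphatidylcholine, had the largest difference upward on IL-13. It measured 276.7 and 328.6 on saline 6 and 48 and 515.8, 640 and 399 on IL-13 6, 18 and 48, a difference of 0.75 (limma adjusted p 0.469). Lpl, lipoprotein lipase, measured 13746 and 8804 against 5888, 5274 and 6560, a difference of -0.90 (adjusted p 0.388). Elovl6, a fatty acid elongase, differed by -0.91 (adjusted p 0.576). Of 10 tested fat markers, 1 was higher and 9 lower in mean on IL-13, with a median difference of -0.70 and none called. Their summed intensity was 60928 and 31194 on saline 6 and 48, and 33195, 26588 and 29137 on IL-13 6, 18 and 48. The part of fat tissue in the values of the lipid genes was not tested.

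Of 30 regulators of the surfactant genes, 26 had a probe set and 19 were tested. None was called, 11 were higher and 8 lower in mean, and the median difference was 0.09. Foxa1, a transcription factor of lung epithelium, measured 1198 and 2102 on saline 6 and 48 and 1785, 2268 and 2051 on IL-13 6, 18 and 48. Cebpa measured 7815 and 5187 against 5482, 5998 and 5580. Fgfr2, the receptor for growth factors of the airway mesenchyme, was lowest on saline 6 (1311) and 3710 to 4539.5 on the others. No regulator stood 2-fold above the other arrays on IL-13 18.

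Surfactant is cleared by alveolar macrophages, which take it up and degrade it under control of GM-CSF and PPARG. Of 17 genes of this clearance, 16 had a probe set and 11 were tested. None was called, 1 was higher and 10 lower in mean on IL-13, and the median difference was -0.17. Abcg1, a cholesterol exporter, measured 1666 and 1640 on saline 6 and 48 and 1028, 1216 and 917.4 on IL-13 6, 18 and 48 (difference -0.66, limma adjusted p 0.412). Marco, a scavenger receptor, measured 425.2 on saline 6 and 17.2 to 96.2 on the others. Of the relatives of the members (collectins, saposin-like proteins, aspartic proteases and phosphate carriers), 12 of 23 had a probe set and 8 were tested. None was called, with 2 higher, 6 lower and a median difference of -0.16, and IL-13 18 was the highest array in none of the 8.

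The neighbouring alveolar type I cell was read through 13 of 20 marker genes, of which 10 were tested. None was called, 9 were higher and 1 lower in mean on IL-13, and the median difference was 0.42. Their summed intensity was 26687 to 27205 on the saline arrays and 32258, 35568 and 27472.5 on IL-13 6, 18 and 48. IL-13 18 was the highest array in 7 of the 10, against 19.2% of all tested genes. Hopx, a type I transcription cofactor, measured 484.1 and 568.1 on saline and 1077, 1605 and 841.6 on IL-13 6, 18 and 48 (difference 1.11, adjusted p 0.377). These 7 type I markers had their highest array in common with Sftpb, Sftpc and Slc34a2, by smaller folds, and their part in the members' values was not tested.

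**Figure D5:**
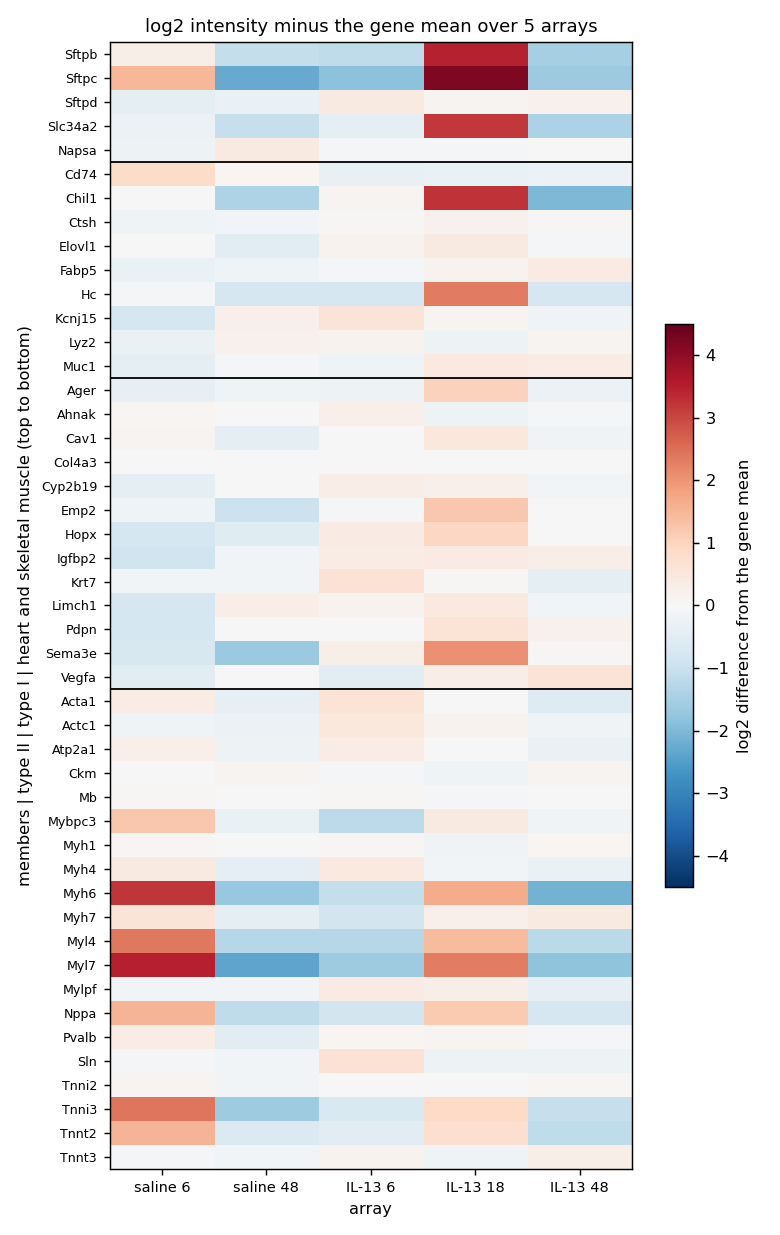
Log2 intensity minus each gene's mean over the 5 arrays (red above, blue below), for the members, the other type II markers, the type I markers and the heart and skeletal muscle genes, from top to bottom, separated by black lines. Sftpb, Sftpc, Slc34a2, Chil1 and Hc are reddest on IL-13 18, and Myl7, Myh6, Myl4 and Tnni3 on saline 6.

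The other cell type lists differed in how often IL-13 18 was the highest array, which held for 19.2% of all tested genes. It was highest in 5 of 7 tested goblet cell markers, in 8 of 14 endothelial markers and in 4 of 15 macrophage markers. At least 2-fold above the other arrays were Mmp12 (5.87-fold, near the 6.56 of Sftpc) and Chil3 of the macrophage list, Cldn5 of the endothelial list and none of the goblet list. All 7 goblet cell markers were higher in mean on IL-13, with a median difference of 1.39 and none called. IL-13 18 was the highest array for none of 12 club cell, 7 ciliated cell and 10 fat markers tested, and for 1 of 16 T cell and thymocyte markers. The T cell and thymocyte markers had a median difference of -1.35, with none called. Of the 4 salivary markers tested, Amy1, Klk1 and Klk1b5 were high on saline 6 only. Amy1, the salivary amylase, measured 25180 and 369.7 on saline 6 and 48, and 364.7, 357.3 and 447.5 on IL-13 6, 18 and 48. The part of these cell types in the values of the members was not tested.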

How the data were processed

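Total RNA labelled as murine lung was measured on 5 arrays. The values were deposited by the authors as linear intensity. What software, background correction and scaling lay behind them was not given in the sources used here. Control probe sets (66 of 12488) were left out. The annotation gave 1 symbol to 10833 probe sets, several to 396 and none to 1193, and symbols were updated through RefSeq for 10817.

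Each array was brought to the same 2% trimmed mean, floored at the pooled 20th percentile (55.3) and put on a log2 scale. Those that exceeded 210, the 40th percentile over all arrays, at least 2 times in 5 were fitted by limma 3.58.1 (lmFit, eBayes; R 4.3.3), two-sided, with Benjamini-Hochberg adjustment over 7811 probe sets and a threshold of 0.05. There were 3 residual degrees of freedom, and the number of arrays limits the precision. The code was tested on simulated data. Folds are from scaled values with no test where 1 array faced 1. For a gene with several probe sets, the brightest by mean log2 value stood for it in lists and likeness.

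All member probe sets were named. From each list the rule allowed up to 5 genes with the largest treatment difference, up to 5 with the widest range, and set defining markers. Other genes named as values of a list, as 1 of 18 or 15 probe sets or as examples were chosen after their values were seen. The members and lists were chosen with earlier results of these data known. Alternatives were other scalings, floors, filters and fold thresholds, trend and robust settings, a block for title number, and leaving out arrays. Same-numbered arrays share only a title number. Figures were drawn with matplotlib 3.10.9.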

Additional observations from a re-analysis of the deposited data

Results flagged for a closer look

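In Sftpc the saline and IL-13 arrays differed in opposite directions at the 2 title numbers. The log2 ratio of IL-13 to saline was -3.35 at title number 6 and 0.63 at 48, a difference of -3.98 between them. Napsa also changed direction, from 0.21 at title number 6 to -0.43 at 48, a difference of 0.64. Each pair is 1 array against 1, so neither difference was tested.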

How the results depend on the processing

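No tested member passed the threshold under any alternative run, so the alternatives bear on sign and size. Calls between IL-13 and saline over all probe sets (1 higher and 3 lower) became 0 higher with quantile normalization. They became 0 and 0 with the 10th or 40th percentile as floor, no filter, trend and robust settings, or the title number block. With a filter at the 60th percentile they were 0 higher and 1 lower, and without both saline 6 and IL-13 18 (added after the data were seen) 0 lower. Leaving out 1 array gave 0 to 3 higher and 0 to 10 lower, and for title number 6 against the others 0 to 9 higher and 0 to 1 lower.

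With the block over the arrays of title numbers 6 and 48, the treatment difference was -0.94 for Sftpb, -1.36 for Sftpc and -0.28 for Slc34a2, and the title number difference 0.84, 1.76 and 0.88. This block leaves out IL-13 18, and the estimates equal those without that array. Leaving out 1 array gave treatment differences from -0.94 to 1.54 for Sftpb, -1.36 to 2.50 for Sftpc, -0.28 to 2.02 for Slc34a2 and -0.46 to 0.19 for Napsa. Title number differences ran from -1.64 to 0.84 for Sftpb, -1.96 to 1.76 for Sftpc, -1.42 to 0.88 for Slc34a2 and -0.42 to 0.42 for Sftpd. Without saline 6 and IL-13 18, the treatment difference of Sftpb was -0.27. Sftpd's was 0.016 with a floor at the 40th percentile, which lies above 4 of its 5 values, and its title number difference was -0.00091 on the values as deposited.

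Pair counts (higher, lower) at title number 6 were 780 and 632 at 1.5-fold, 66 and 103 at 3-fold, and 128 and 148 with the other saline array. At 48 they were 346 and 362, 22 and 53, and 268 and 295. Apart from fewer arrays, a raised floor or another fold threshold, the cause of these shifts was not tested. With 1 array per treatment and title number, no member's level on IL-13 18 can be set against replicate spread.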
